A study of Mus musculus with 33 samples.

Results

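The 9 genes described here, P2ry12, P2ry13, Tmem119, Cx3cr1, Sall1, Csf1r, Gpr34, Siglech and Olfml3, are a named set of homeostatic microglia genes, chosen by symbol because microglia of the undisturbed brain are known to express them. All 9 were found among the 38355 genes of the count files from aged mice and among the 40678 loci of the expression files from young mice, and all 9 passed the filter on low values in both. RNA from the CA1 region of the hippocampus was sequenced in 2 experiments on JQ1, a small molecule inhibitor of BET proteins, the readers of histone acetylation. The experiments asked what JQ1 does to gene expression in a mouse model of amyloid pathology and in WT animals.

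In the aged experiment, 6 APP animals treated with JQ1, 6 APP animals given vehicle and 4 WT animals given vehicle had counts. APP animals are of the transgenic line APP/PS1-21, on C57B/6, whose transgenes are driven in neurons by the Thy1 promoter. They were 8 to 10 months old (the methods name females of this age for the behavioural tests), JQ1 was injected i.p. at 50 mg/kg for 10 days, and the vehicle was 10% DMSO. The WT animals of this experiment are named WT by their titles, whereas their strain label gives the APP line. In the young experiment, male C57B/6JRj mice of 3 months received 50 mg/kg JQ1 (n = 8) or vehicle (n = 8) for 13 days. They carried no transgene. By the methods, the animals for RNA sequencing were killed after the probe test of the water maze, and thus after training. No group of WT animals treated with JQ1 was part of the aged experiment, and the 2 experiments differ in age, strain label, duration and unit of measurement, so that their levels were not compared.

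Microglia are the resident macrophages of the brain and the main cells of the hippocampus that express these 9 genes. In the undisturbed brain they survey the tissue with motile processes, and they do so with a set of surface receptors for signals from neurons and astrocytes, among them ADP, fractalkine, CSF1 and IL34. Around amyloid plaques, microglia are known to multiply and to take up a state in which genes such as Cst7, Itgax and Clec7a are expressed and several homeostatic genes are expressed less per cell. In bulk tissue, fewer cells of a type and less RNA per cell cannot be told apart, and neither can more cells and more RNA per cell.

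On the mm10 build, P2ry12 (ENSMUSG00000036353, chr3:59216272-59262871) and P2ry13 (ENSMUSG00000036362, chr3:59207892-59210882), which encode 2 receptors for ADP, lie 5389 bases apart on the minus strand, both within the span of Med12l on the opposite strand. The position of Csf1r is given with its values. The other members lie apart from each other: Olfml3 (ENSMUSG00000027848, chr3:103722222-103738001, minus strand), Tmem119 (ENSMUSG00000054675, chr5:113793729-113800516, minus), Siglech (ENSMUSG00000051504, chr7:55768178-55778925, plus), Sall1 (ENSMUSG00000031665, chr8:89027235-89044162, minus), Cx3cr1 (ENSMUSG00000052336, chr9:119901616-120069879, minus) and Gpr34 (ENSMUSG00000040229, chrX:13632089-13640858, plus). RefSeq promoter windows on GRCm38.p6 were matched for 6 of the 9 genes (P2ry12, P2ry13, Siglech, Cx3cr1, Olfml3 and Sall1). The 250 bases upstream of the RefSeq start are shown for P2ry12, the member with the smallest difference between APP and WT animals, and for Siglech and Cx3cr1, which were both over 2-fold higher in APP animals. Capitals mark GGAAGT, the core of the motif of PU.1 (the myeloid factor encoded by Spi1), or its reverse complement.
P2ry12, chr3:59262986-59263235, minus strand: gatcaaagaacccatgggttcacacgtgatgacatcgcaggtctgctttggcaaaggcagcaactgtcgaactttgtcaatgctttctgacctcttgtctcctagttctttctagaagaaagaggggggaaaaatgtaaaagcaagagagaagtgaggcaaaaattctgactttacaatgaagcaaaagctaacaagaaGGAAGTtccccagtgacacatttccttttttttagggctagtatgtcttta
Siglech, chr7:55767934-55768183, plus strand: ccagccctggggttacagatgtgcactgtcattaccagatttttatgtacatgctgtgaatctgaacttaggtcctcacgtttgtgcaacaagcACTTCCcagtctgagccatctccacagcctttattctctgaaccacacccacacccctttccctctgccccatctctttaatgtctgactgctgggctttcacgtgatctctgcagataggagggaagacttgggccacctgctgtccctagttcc
Cx3cr1, chr9:120068297-120068546, minus strand: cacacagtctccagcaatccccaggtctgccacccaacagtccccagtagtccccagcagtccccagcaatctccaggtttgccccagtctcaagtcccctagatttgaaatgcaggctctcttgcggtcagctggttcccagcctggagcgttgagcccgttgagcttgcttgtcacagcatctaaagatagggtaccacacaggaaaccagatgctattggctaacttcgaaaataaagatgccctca
The P2ry12 window lies within the span of Med12l and the Cx3cr1 window within the outer bounds of the Cx3cr1 gene. In windows of 300 bases, 250 before to 50 after the start, searched on both strands, GGAAGT stood in P2ry12 (51 bases before the start), Siglech (156 bases before it, on the opposite strand) and 1 of the windows of Sall1 (180 bases before it), and thus in 3 of the 8 windows of these 6 members, of which Sall1 has 3, beside 23.8% of 32851 RefSeq promoter windows. The longer PU.1 site GAGGAAGT (3.20% of windows), the ETS-IRF composite element (2.72%), the SMAD palindrome GTCTAGAC (0.213%) and the MEF2 sites TATTTATA (1.70%) and TATTTTTA (2.72%) stood in none of the 6, and the SMAD element CAGACA (21.0%) stood in Siglech alone. GAGGAAGT contains GGAAGT. These matches describe the letters of the windows, and no binding was measured.

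The aged libraries held 14605459 to 25339482 reads on genes, and the members had between 135 (Olfml3) and 7379 (Csf1r) reads in a library. Levels are given as CPM, read counts scaled to the library size after TMM normalization. The library labelled APP JQ1 replicate 4 went against its label for the genes of the transgene. Thy1, whose promoter carries the transgenes, stood at 819 CPM in it, between 1616 and 2068 CPM in the other 5 APP JQ1 libraries and between 840 and 1070 CPM in WT. App stood at 1779 CPM in it, between 2068 and 2494 CPM in the other 5 and between 1852 and 1990 CPM in WT. Cst7, a marker of plaque-associated microglia, had no read in it (3 reads would be 0.199 CPM) and between 14.2 and 38.1 CPM in the other 5. For 7 of the 9 members it lay within the range of the WT libraries, and for P2ry12 and P2ry13 close above and below it. Every comparison that uses it is therefore given with and without it. A second library, WT vehicle replicate 4, held 3228 CPM of 10 choroid plexus genes against 28.4 to 149 CPM in the other 15.

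Within WT animals, levels per length (CPM per kilobase of exon) were highest for P2ry12, at 18.3 ± 0.846 (SD, n = 4), and Csf1r, at 16.3 ± 1.61, whose libraries overlapped. Gpr34 (10.2), Tmem119 (10.0) and Cx3cr1 (9.21) followed, with overlapping libraries, then P2ry13 (5.37), Siglech (5.30) and Sall1 (4.68), and lastly Olfml3 (1.36). The only neighbours in this order whose WT libraries did not overlap were Cx3cr1 and P2ry13, and Sall1 and Olfml3. In APP animals given vehicle the order changed at the top: Csf1r stood at 39.7 ± 6.64 CPM per kilobase (n = 6), ahead of P2ry12 at 22.0 ± 4.50, Gpr34 at 21.9 and Cx3cr1 at 20.9. Csf1r was above P2ry12 in 6 of 6 of these libraries, although the ranges of both genes overlapped, and Gpr34 and Cx3cr1 overlapped P2ry12. Tmem119 (13.8) followed without overlap with Cx3cr1, then Siglech (10.8), P2ry13 (7.60), Sall1 (7.18) and, apart from them all, Olfml3 (3.41). The same order of the 9 was found in APP animals treated with JQ1. The length used is that of all annotated exons of a gene. It was longest for Olfml3, at 6.16 kilobases, and the distance of Olfml3 from the other members depends on it. Replicates of WT animals differed least in P2ry12 (coefficient of variation of CPM 4.61%) and most in Gpr34 (27.3%), with a median of 11.4% over the members. The median was 19.2% in APP animals given vehicle and 33.8% in those treated with JQ1, or 22.0% without the library labelled APP JQ1 replicate 4.

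**Figure D1:**
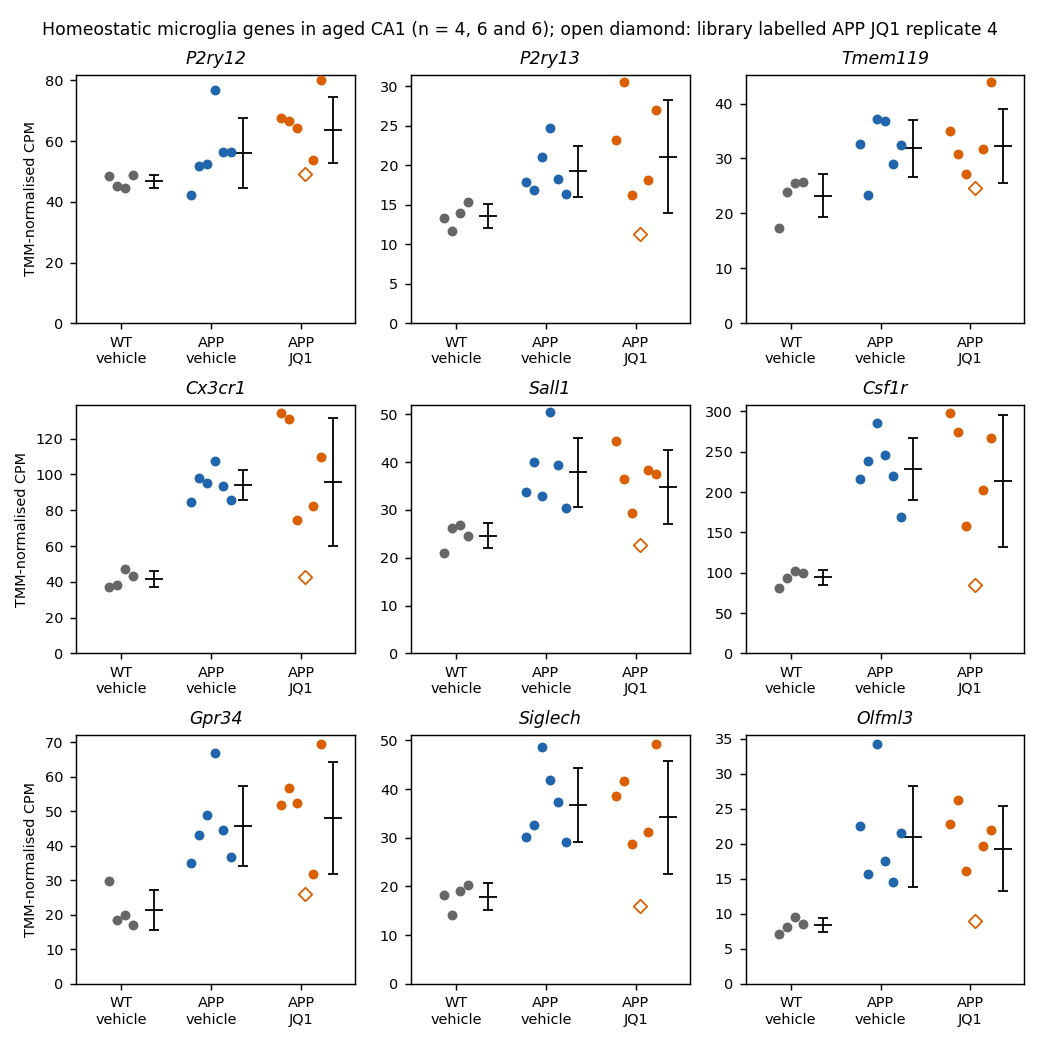
CPM of each of the 9 genes (y axis, linear, 1 panel per gene) in every aged library by group (x axis): points are libraries, bars the group mean ± SD, and the open diamond is the library labelled APP JQ1 replicate 4. The APP vehicle libraries lie above every WT library for 7 genes, and for P2ry12 and Tmem119 the groups overlap.

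In APP animals given vehicle, 5 of the 9 homeostatic genes were higher than in WT animals given vehicle: Olfml3, Csf1r, Cx3cr1, Gpr34 and Siglech, by 2.05- to 2.51-fold. The other 4, P2ry12, P2ry13, Tmem119 and Sall1, had fitted folds of 1.20 to 1.53 and did not pass the threshold, an adjusted p under 0.05. No member was lower. Across all 16962 genes tested with edgeR's quasi-likelihood test and Benjamini-Hochberg adjustment, 2.49% were called higher in APP animals. The median log2 fold change was 1.03 over the 9 members and 0.0093 over all genes. For 7 members every APP vehicle library lay above every WT library, which was the case for 4.94% of all genes tested.

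Among the ADP receptors, P2ry12, by which microglia sense injury and extend their processes, stood at 48.4, 45.3, 44.4 and 48.7 CPM in WT replicates 1, 3, 4 and 5, and between 42.4 and 77.0 CPM (median 54.4) in the 6 APP vehicle libraries. The groups overlapped, with 5 of 6 APP libraries above all WT libraries and 1 below them. The fitted log2 fold change was 0.26 ± 0.14 (SE), with an edgeR adjusted p of 0.409 and a two-sided exact permutation p of 0.1143. P2ry13, its neighbour on the chromosome, stood at 13.3, 11.7, 13.9 and 15.4 CPM in WT and between 16.4 and 24.8 CPM (median 18.1) in APP animals. These groups did not overlap, yet P2ry13 did not pass the test across all genes (0.50 ± 0.21 on the log2 scale, edgeR adjusted p = 0.276, exact permutation p = 0.004762, the smallest that 6 against 4 libraries allow).

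The receptors for ligands made by neurons and glia differed more. Cx3cr1, the receptor of fractalkine, stood at 37.4, 38.2, 47.2 and 43.1 CPM in WT and between 84.8 and 107 CPM (median 94.2) in APP animals. Every APP library was far above the highest WT library, and the fold was 2.27 (95% interval 1.61 to 3.19, edgeR adjusted p = 0.0103). Csf1r (ENSMUSG00000024621, chr18:61100598-61132149, plus strand), the receptor tyrosine kinase for CSF1 and IL34 on which microglia depend for survival, stood at 81.5, 93.0, 102 and 100.2 CPM in WT and between 169 and 285 CPM (median 229) in APP animals. Its groups were as clearly apart, with a fold of 2.43 (1.65 to 3.58, edgeR adjusted p = 0.0138). Exons of Csf1r share 873 bases (15.1%) with Hmgxb3 on the opposite strand, and Hmgxb3 itself did not pass the test (log2 fold change -0.05, edgeR adjusted p = 0.862). Gpr34, a receptor for lysophosphatidylserine, had 29.8, 18.5, 19.9 and 16.9 CPM in WT and 34.9 to 67.0 CPM (median 43.7) in APP animals. WT replicate 1 was the highest of its group and still below every APP library (fold 2.15, interval 1.47 to 3.16, edgeR adjusted p = 0.0316).

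Of the lectin and the membrane marker, Siglech, a sialic acid-binding lectin, stood at 18.3, 14.0, 19.1 and 20.3 CPM in WT and between 29.2 and 48.7 CPM (median 35.0) in APP animals. The groups did not overlap, and the fold was 2.05 (1.44 to 2.90, edgeR adjusted p = 0.0260). Tmem119, a transmembrane protein used as a microglial marker, had 17.4, 24.0, 25.6 and 25.8 CPM in WT and 23.4 to 37.1 CPM (median 32.5) in APP animals. The groups overlapped (log2 fold change 0.46 ± 0.16, edgeR adjusted p = 0.171, exact permutation p = 0.03333).

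Olfml3, a secreted protein of the olfactomedin family and the lowest of the members, had the largest fold of the 9. It stood at 7.17, 8.16, 9.56 and 8.53 CPM in WT and between 14.5 and 34.2 CPM (median 19.5) in APP animals, without overlap (fold 2.51, interval 1.70 to 3.71, edgeR adjusted p = 0.0103). Sall1, the zinc finger transcription factor that maintains the identity of microglia, stood at 21.0, 26.2, 26.9 and 24.5 CPM in WT and between 30.3 and 50.5 CPM (median 36.6) in APP animals. Its groups did not overlap, but it missed the threshold by a small margin (log2 fold change 0.62 ± 0.17, edgeR adjusted p = 0.0552).

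The number of members called rested on single libraries, as did the number called over all genes. Over all genes 436 were called in either direction, and between 154 and 601 with 1 library left out. Without WT replicate 4, 1.37% of all genes were called higher, beside 2.49% with it. For all 9 members the direction was the same under every setting tried. Without WT replicate 1 only Gpr34 passed, without WT replicate 3 only Olfml3, and without WT replicate 4 or 5, or APP vehicle replicate 3, 4 or 5, Cx3cr1, Csf1r and Olfml3 passed. Without APP vehicle replicate 2 Gpr34 alone was lost, and without the library labelled APP JQ1 replicate 4, which enters the shared estimate of the spread, Sall1 passed too, as 1 of 6 members (edgeR adjusted p = 0.0159, with 3.32% of all genes called higher), as it also did without APP JQ1 replicate 1 or APP vehicle replicate 6.

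**Figure D2:**
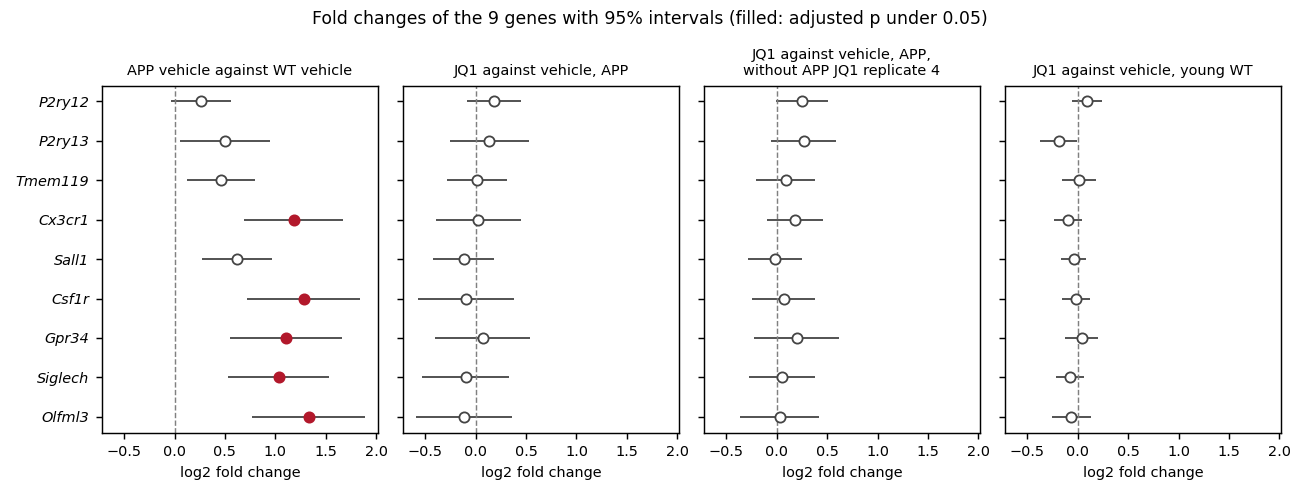
Log2 fold change (x axis) of the 9 genes (y axis) with 95% intervals, for APP vehicle against WT vehicle, for JQ1 against vehicle in APP animals with and without the library labelled APP JQ1 replicate 4, and for young mice, with filled points for an adjusted p under 0.05. Against WT vehicle the APP vehicle values range from 0.26 to 1.33, whereas JQ1 against vehicle lies near 0 in APP and in young animals.

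Set against each other within a library, the members did not differ in equal measure between APP and WT animals. The ratio of Csf1r to P2ry12 CPM was 1.68 to 2.29 in WT and 3.00 to 5.43 in APP vehicle libraries, and that of Cx3cr1 to P2ry12 was at most 1.06 in WT and at least 1.40 in APP vehicle libraries. The ratios of Gpr34, Siglech and Olfml3 to P2ry12 were likewise higher in every APP vehicle library than in any WT library. Those of P2ry13 (0.258 to 0.316 in WT, 0.292 to 0.421 in APP), Tmem119 and Sall1 overlapped. Csf1r, Cx3cr1, Gpr34, Siglech and Olfml3 were already apart between these groups in CPM, and P2ry12 had the smallest fold of the members. The share of all genes whose ratio to P2ry12 separated the groups is not given here. The ratio was chosen after the values had been seen, and it is given as a description without a test.

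The summed level of the 9 members was 274 to 309 CPM in WT libraries and 477 to 668 CPM in APP vehicle libraries. Over 20 genes shared by microglia and other myeloid cells, such as Tyrobp, C1qa, C1qb and Ctss, it was 337 to 389 CPM in WT and 935 to 2094 CPM in APP vehicle libraries. Expressed as a share of that myeloid sum, P2ry12 had a median of 13.1% (11.4 to 13.8%) in WT and 3.61% (2.13 to 6.02%) in APP vehicle libraries. Csf1r had 26.2% (23.2 to 27.6%) in WT and 14.0% (10.9 to 18.1%) in APP animals, and Cx3cr1 11.3% (10.7 to 12.1%) and 6.03% (4.25 to 9.18%). This share was lower in every APP vehicle library than in any WT library for 8 of 9 members, with Olfml3 as the exception (2.04 to 2.46% and 0.931 to 2.30%). The ratio to the myeloid sum was lower in the same way for 89.2% of all 16962 genes tested and the count over the members is near that background.

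**Figure D3:**
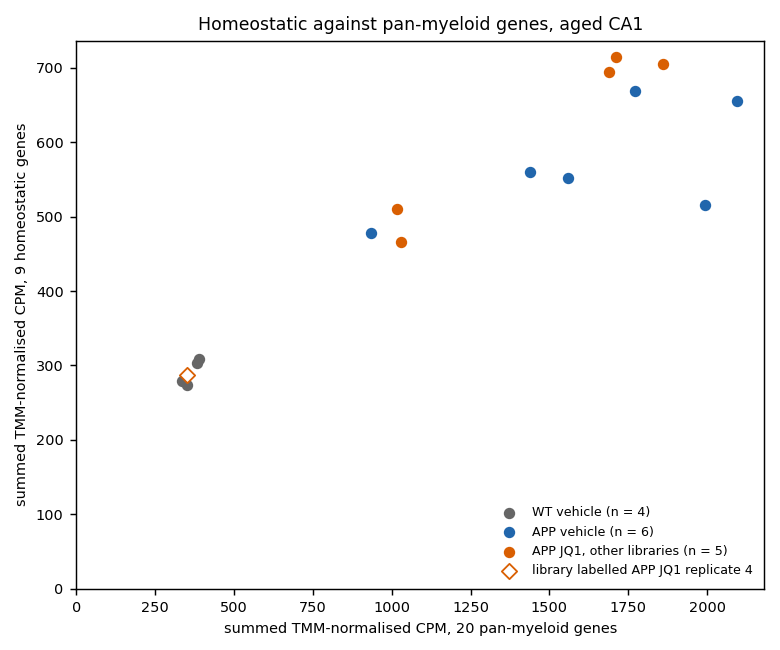
Summed CPM of the 9 homeostatic genes (y axis) against summed CPM of the 20 pan-myeloid genes (x axis), with 1 point per aged library, colours for the groups and an open diamond for the library labelled APP JQ1 replicate 4. The homeostatic sum reaches 668 CPM in APP vehicle against at most 309 CPM in WT, and the pan-myeloid sum 2094 CPM against at most 389 CPM.

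Further genes of the homeostatic programme followed in part. The median log2 fold change of 22 other homeostatic genes was 0.87. Of these, 9 were higher in APP animals given vehicle, beside 2.49% of all genes tested, and none was lower. Among them were Lag3 (2.26), Vsir (1.59), P2ry6, a receptor for UDP (1.55), Abi3 (1.49), Pros1, a ligand of Mertk (1.31), the integrin subunit Itgb5 (1.18), Selplg (0.97) and the protease inhibitor Cst3 (0.78), with edgeR adjusted p between 0.00828 and 0.0394. Slc2a5, a fructose transporter (-0.05), Mertk, a receptor for the engulfment of dying cells (0.13), and Bin1 (0.03) did not pass the threshold.

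Of 25 genes for ligands and regulators of the 9 members, 11 were higher, beside 2.49% of all genes tested, and none was lower (median 0.28). Of the ligands of Csf1r, Csf1 rose from 25.2 ± 2.59 CPM in WT (n = 4) to 52.0 ± 8.08 CPM in APP animals (n = 6, log2 fold change 1.05, edgeR adjusted p = 0.0364). Il34, the other ligand, stood at 52.8 ± 8.31 and 47.5 ± 4.49 CPM (-0.15, edgeR adjusted p = 0.577). Cx3cl1, the ligand of Cx3cr1, did not pass either (-0.12, edgeR adjusted p = 0.683). Of the transcription factors of microglia, Irf8 (2.33), Runx1 (2.08), Spi1, which encodes PU.1 (1.78) and Cebpa (1.27) were higher. Of the TGF-beta pathway, on which the homeostatic state depends, Tgfb1 (1.37), Tgfbr2 (1.37), Tgfbr1 (1.13) and Nrros (0.70) were higher, as was Entpd1, which breaks down extracellular ATP and ADP (0.81), whereas Smad3 did not pass the threshold (-0.00, edgeR adjusted p = 0.993).

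Markers of other cells were measured beside them. Over all genes tested, 2.49% were called higher. Of 20 pan-myeloid genes 19 were higher (median 1.82), the exception being Aif1 (0.92, edgeR adjusted p = 0.0508). Of 21 tested genes of plaque-associated microglia 16 were higher (median 1.91), among them Cst7 (8.40), Itgax (5.93) and Trem2 (2.78). In WT libraries Cst7 lay at 0 to 0.244 CPM and Itgax at 0.299 to 0.506 CPM. These levels are near that of 3 reads (0.1184 to 0.2054 CPM), so the folds of Cst7 and Itgax are poorly determined. The summed level of 9 perivascular macrophage genes was 13.8 to 31.3 CPM in WT and 23.0 to 50.4 CPM in APP vehicle libraries, with none called and a median log2 fold change of 0.55, and that of 12 genes of monocytes, neutrophils and lymphocytes was 0.489 to 3.96 and 0.757 to 6.31 CPM. Ly6g, which defines neutrophils, was at 0 in 16 of 16 libraries, and Ms4a1, which defines B cells, in 13. The part of these cells in the differences was not tested. Pyramidal neurons of CA1 were represented by 7 genes with a summed level of 1017 to 1372 CPM in WT and 1054 to 1318 CPM in APP vehicle libraries, none of which was called. Of 10 astrocyte genes, whose summed level was 4563 to 4950 CPM in WT and 6790 to 10087 CPM in APP vehicle libraries, 2 were higher and none lower (median 0.40). They were Gfap, an intermediate filament protein, at 295 ± 33.5 CPM in WT (n = 4) and 2679 ± 1332 CPM in APP animals (n = 6, 9.08-fold, edgeR adjusted p = 0.00993), and Sox9, a transcription factor, at 1.72-fold (edgeR adjusted p = 0.0102). Vim (2.24 on the log2 scale, edgeR adjusted p = 0.109), Aqp4 (0.65, 0.0890) and Aldh1l1 (0.53, 0.0966) did not pass, although their groups did not overlap. The part of astrocytes in the differences of the members was not tested.

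**Figure D4:**
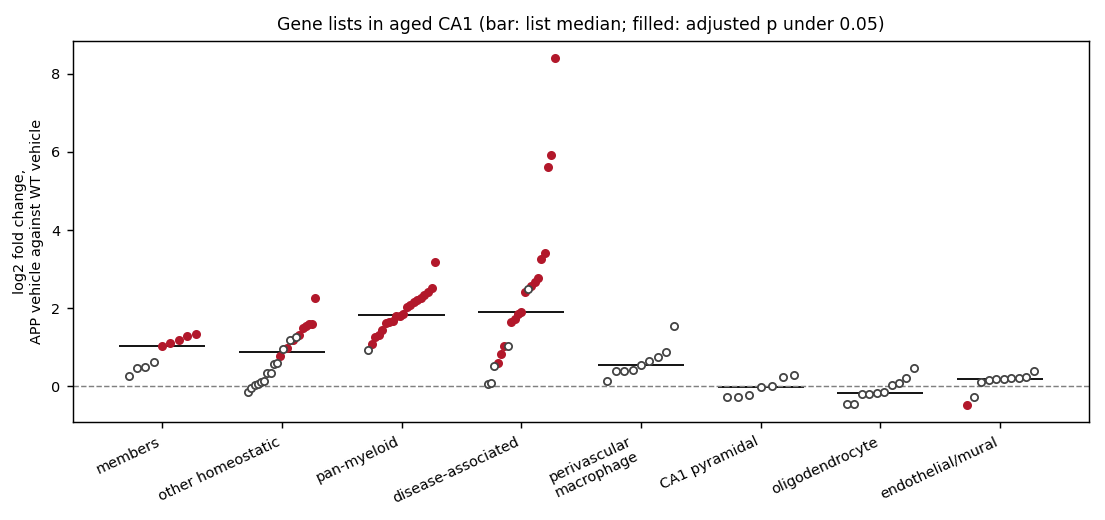
Log2 fold change of APP vehicle against WT vehicle (y axis) for each tested gene (points, filled where the adjusted p is under 0.05) of 8 gene lists (x axis), with the list median as a bar. The median is 1.03 for the 9 homeostatic genes, 0.87 for the 22 other homeostatic genes, 1.82 for the pan-myeloid and 1.91 for the plaque-associated genes.

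JQ1 changed none of the 9 genes in APP animals past the threshold. Of all 16962 genes tested, 1.08% were called in this comparison. The log2 fold changes of the members lay between -0.12 and 0.18, with edgeR adjusted p of 0.474 to 0.968, and their groups overlapped in every case, as did those of all genes but 0.878% (higher) and 1.15% (lower). The 95% intervals of the folds had lower bounds between 0.662 and 0.945 and upper bounds between 1.14 and 1.45. Differences within these intervals remained compatible with the data, and the smallest difference that the test could detect was not determined. No member had an unadjusted edgeR p under 0.05, whereas 2987 of all 16962 genes tested did. DESeq2 called none of the members (5.33% of the genes it tested).

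P2ry12 had the largest estimate among the 9: the 6 APP JQ1 libraries stood between 49.2 and 80.0 CPM (median 65.4), against a median of 54.4 CPM with vehicle. Its log2 fold change was 0.18 ± 0.13 (edgeR adjusted p = 0.474, exact permutation p = 0.2511), and without the library labelled APP JQ1 replicate 4, which was the lowest at 49.2 CPM, it was 0.25 (edgeR adjusted p = 0.382). When GC content and length were corrected for, the direction turned, to -0.11 for P2ry12, and Gpr34 went from 0.07 to -0.27, neither of them called. P2ry13 lay between 11.3 and 30.5 CPM (median 20.7) with JQ1. Both groups overlapped those given vehicle.

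Cx3cr1 ranged from 42.9 to 134 CPM (median 96.1) with JQ1, and Csf1r from 85.1 to 297 CPM (median 235). In both the lowest value came from the library labelled APP JQ1 replicate 4, and the next lowest were 74.4 and 158 CPM. The 6 APP vehicle libraries lay within these ranges. The log2 fold changes were 0.03 for Cx3cr1 and -0.10 for Csf1r, and without that library 0.18 and 0.07.

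For the remaining members, the medians with JQ1 were 52.0 CPM for Gpr34, 34.8 CPM for Siglech, 31.3 CPM for Tmem119, 37.1 CPM for Sall1 and 20.9 CPM for Olfml3, beside 43.7, 35.0, 32.5, 36.6 and 19.5 CPM with vehicle. Without the library labelled APP JQ1 replicate 4, which had the lowest value of each of the 9 genes among the JQ1 libraries, again no member passed (0.431% of all genes did). The log2 fold changes then lay between -0.02 for Sall1 and 0.27 for P2ry13, with edgeR adjusted p of 0.382 to 0.970 and intervals of the folds that began between 0.779 and 0.995 and ended between 1.19 and 1.54.

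Around the members, edgeR called none of the 22 other homeostatic, 20 pan-myeloid or 21 plaque-associated genes between JQ1 and vehicle. In these lists, 3, 0 and 0 genes had an unadjusted edgeR p under 0.05, beside 2987 of all 16962 genes tested. DESeq2 called none of the pan-myeloid and plaque-associated genes but 2 of the other homeostatic genes lower, Fcrls and Bin1, and without the library labelled APP JQ1 replicate 4 Fcrls alone. Fcrls, an Fc receptor-like gene of microglia, stood between 6.14 and 36.5 CPM with vehicle and between 3.04 and 6.99 CPM with JQ1, in overlapping groups (-1.64, edgeR adjusted p = 0.0552, DESeq2 adjusted p = 0.00555). The medians were -0.16, -0.24 and -0.29 on the log2 scale, beside 0.02 for the 9 members, and without the library labelled APP JQ1 replicate 4 the pan-myeloid and plaque-associated medians were -0.04 and -0.08 and that of the members 0.09. Among the 25 ligands and regulators, only Itgb8, an integrin subunit that takes part in the activation of TGF-beta, rose with JQ1 by edgeR, from 41.0 to 62.1 CPM (0.60 ± 0.13, edgeR adjusted p = 0.0257, and 0.65 with 0.0310 without that library), and DESeq2 called Itgb8 and Adam10.

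APP animals treated with JQ1 were also compared with WT animals given vehicle. This comparison shares its WT libraries with that of APP vehicle against WT, so the values are given side by side and are not independent. Cx3cr1 (log2 fold change 1.21, edgeR adjusted p = 0.0148), Csf1r (1.18, 0.0272), Gpr34 (1.17, 0.0272) and Olfml3 (1.21, 0.0246) were higher, beside 1.18, 1.28, 1.11 and 1.33 in APP vehicle animals. Siglech (0.93, edgeR adjusted p = 0.0516), P2ry13 (0.64, 0.148), Sall1 (0.50, 0.145), Tmem119 (0.48, 0.152) and P2ry12 (0.45, 0.126) were not called. Of all genes tested, 1.93% were called higher. The groups did not overlap for 1 member, P2ry12, a condition met by 2.55% of all genes. Under the 11 alternatives other than leaving out 1 library, the log2 fold change of P2ry12 lay between 0.15 and 0.50. It passed the threshold under 1 of them.

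Without the library labelled APP JQ1 replicate 4, 8 of 9 members were called higher than in WT, where 3.60% of all genes were, and the groups did not overlap for any of the 9, a condition met by 5.87% of all genes. The log2 fold changes were 1.35 for Cx3cr1 (edgeR adjusted p = 4.44e-05), 1.35 for Olfml3 (0.000807), 1.34 for Csf1r (9.98e-05), 1.29 for Gpr34 (0.00285) and 1.07 for Siglech (0.00108). They were smaller for P2ry13 (0.75, edgeR adjusted p = 0.0169), Sall1 (0.59, 0.0231) and P2ry12 (0.50, 0.0493), and Tmem119 was not called (0.53, 0.0661). Around the members, 10 of 22 other homeostatic, 11 of 25 ligand and regulator, 20 of 20 pan-myeloid and 16 of 21 plaque-associated genes were then called higher, beside 6, 9, 16 and 11 with that library kept.

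With that library kept, the 4 calls of members fell to Gpr34 alone without WT replicate 1. They fell to none without WT replicate 3, 4 or 5, and to Cx3cr1 alone without APP JQ1 replicate 1, 2 or 6. Without APP JQ1 replicate 3 Gpr34 alone was lost, and without APP vehicle replicate 3 Siglech was gained. The calls over all genes moved as well, from 349 to between 11 and 651 with 1 library left out. Without WT replicate 4, 0.151% of all genes were called higher, beside 1.93% with it.

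In young WT mice, JQ1 changed none of the 9 genes past the threshold. The files of this experiment hold FPKM, which are divided by transcript length and depth, and log2(FPKM + 0.1) was tested with limma over 18420 loci, of which 0.00543% were called. The limma adjusted p of the members lay between 0.981 and 0.998. The bounds of the 95% intervals of the folds lay between 0.772 and 1.18, and the groups overlapped for all 9, as for all loci but 0.0109% (higher) and 0.0163% (lower). The depth of these libraries is unknown.

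Levels of the young animals were tightly grouped, with a median coefficient of variation over the members of 8.07% with vehicle and 11.3% with JQ1. Csf1r had the highest mean, at 19.3 ± 1.68 FPKM with vehicle and 19.0 ± 1.80 with JQ1 (SD, n = 8 each). P2ry12 followed at 17.8 ± 1.43 and 18.9 ± 2.21 FPKM. The ranges of Csf1r and P2ry12 overlapped, and Csf1r was above P2ry12 in 5 of 8 vehicle and 4 of 8 JQ1 libraries. P2ry12 ranged from 15.8 to 19.7 FPKM with vehicle and from 15.6 to 22.1 FPKM with JQ1. Cx3cr1, next in this order, stood at 14.2 ± 0.880 and 13.4 ± 1.51 FPKM, above Siglech (9.43 ± 0.782 and 8.96 ± 0.885 FPKM) without overlap. Gpr34 (7.75 ± 0.830 and 7.96 ± 0.890 FPKM) and Tmem119 (7.41 ± 0.806 and 7.46 ± 0.875 FPKM) overlapped each other. Sall1 (4.40 ± 0.229 and 4.29 ± 0.370 FPKM) and Olfml3 (4.21 ± 0.314 and 4.06 ± 0.632 FPKM) were the lowest and also overlapped.

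The lowest raw p among the members belonged to P2ry13, which ranged from 5.12 to 6.64 FPKM (median 6.06) with vehicle and from 3.92 to 6.52 FPKM (median 5.49) with JQ1. The difference of -0.19 on the log2(FPKM + 0.1) scale had an exact permutation p of 0.04615 and a limma adjusted p of 0.981, and it failed the correction over all loci. The log2 fold changes of the other 8 lay between -0.10 for Cx3cr1 and 0.09 for P2ry12. Of the lists around them, none of the 22 other homeostatic, 23 ligand and regulator, 20 pan-myeloid or 17 plaque-associated genes that passed the filter was called. Olfml3 is listed in these files as 1 locus together with BC027582, and Sall1 at 2 loci, of which the one whose neighbours lie on the minus strand was used.

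**Figure D5:**
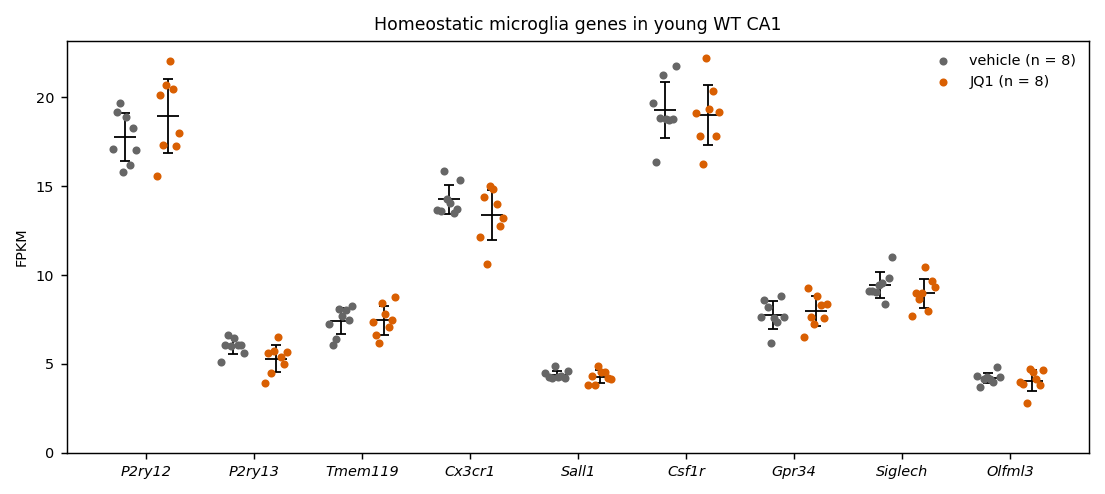
FPKM (y axis, linear) of each of the 9 genes (x axis) in the 8 vehicle and 8 JQ1 libraries of young WT mice (points), with bars for the group mean ± SD. The 2 groups overlap for every gene, as for P2ry13 with 5.12 to 6.64 and 3.92 to 6.52 FPKM.

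Within groups, libraries that were high in one member tended to be high in the others. After the group means of log2 levels were taken off, the 36 pairs of members had a Pearson r of 0.205 to 0.947 (median 0.66, Spearman median 0.606) over the 16 aged libraries, all above 0. Without the library labelled APP JQ1 replicate 4 the range was -0.168 to 0.85 (median 0.473, 33 of 36 above 0), and over the 16 young libraries -0.376 to 0.795 (median 0.384, 32 of 36 above 0). The points of each pair share their libraries and their normalization, so these values are a description.

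Among the genes whose pattern over the 16 aged libraries was most like the mean of the 9 members, again within groups, were Stom (r = 0.963), Apbb1ip (0.956), Slamf8 (0.947) and Trim30a (0.939). Without the library labelled APP JQ1 replicate 4, Stom (0.966) and Apbb1ip (0.887) were still among the 10 nearest. Taken singly, the nearest gene was the same with and without that library for 3 members: Csf1 for Csf1r (r = 0.981 over 16 and 0.949 over 15 libraries), Slamf8 for P2ry13 (0.953 and 0.929) and Fes for Cx3cr1 (0.969 and 0.915). For the other 6 it changed when the library was left out, from Txnip (0.866) to Scarf2 (0.858) for P2ry12, Rpl8 (0.900) to Iscu (0.896) for Tmem119, Lrrk1 (0.911) to Phldb2 (0.928) for Sall1, Krcc1 (0.918) to Cyp2j6 (0.924) for Gpr34, Fcer1g (0.916) to Ppt1 (0.858) for Siglech and Adora3 (0.872) to Tmem81 (0.827) for Olfml3. In young mice, the genes nearest to the mean of the members were Rlbp1 (0.891), Emx2os (0.877) and Mpeg1, a gene of macrophages (0.877). Singly they were Bin1 for Tmem119 (0.923), Emp2 for Cx3cr1 (0.937), Kalrn for Sall1 (0.980) and Trem2 for Olfml3 (0.888). For the other members they were Prps2 for P2ry12 (0.901), Pfkl for Csf1r (0.918), Poglut1 for Gpr34 (0.914) and Tspan15 for Siglech (0.799). The nearest to P2ry13 was a locus without a gene name (0.862). Nothing further was tested on these genes.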

How the data were processed

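CA1 RNA was sequenced on a HiSeq2000. Per the labels and the methods, the authors demultiplexed reads with CASAVA 1.8.2, aligned them to mm10 with STAR (at most 2 mismatches) and counted them per gene with HTSeq. The strand setting of the counting is not given in the sources used here. The deposited counts of the aged libraries are raw whole numbers, and the deposited FPKM of the young libraries were made by the authors with Cufflinks and Cuffdiff. TopHat is also named in the submitters' processing notes, and whether STAR or TopHat aligned the reads behind the FPKM is not given in the sources used here. Rows that name no gene held 40.61 to 52.92% of the reads per library and were left out. Of 33 samples in the labels, 32 had a file; WT vehicle replicate 2 was not analysed here.

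The 3 aged groups were fitted together with edgeR 4.0.16 (TMM, filterByExpr, robust quasi-likelihood test) over 16962 genes, and FPKM with limma 3.58.1 (trend, robust) over 18420 loci with at least 0.5 FPKM in at least 8 libraries, on log2(FPKM + 0.1). Adjusted p are Benjamini-Hochberg values over all features. Exact permutation tests are two-sided and unadjusted, and 54 were computed. Nothing in the labels gives a sequencing batch. The libraries are taken as separate animals, and p-values measure only the spread between them. Replicates of a group differed beyond sampling noise. Depth gives 3 reads a level of 0.1184 to 0.2054 CPM, and limits based on it cover counting error only. TMM factors were 0.9626 to 1.036.

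The named genes are the 9 members, the genes of fixed lists past the threshold or of a stated role, and the genes most like the members by Pearson r within groups. Some genes of this rule are not reported here. Other genes were named as examples after their values had been seen. The members, the lists and the tests were chosen with earlier results of these data known. Gene coordinates came from GENCODE on mm10 and promoter windows from RefSeq. Alternatives were DESeq2 1.42.0, another normalization, filters, pseudocounts (0.01 and 1), the replicate number as a block, a correction for GC content and length, and leaving out each library. Leaving out both outlying libraries (those labelled APP JQ1 replicate 4 and WT vehicle replicate 4) was added after the data had been seen. So were DESeq2 without the library labelled APP JQ1 replicate 4 and ratios between members. Fits were tested on simulated data. R 4.3.3, Python 3.11.15, numpy 2.4.6, pandas 2.3.3, scipy 1.17.1 and matplotlib 3.10.9 were used.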

Additional observations from a re-analysis of the deposited data

Results flagged for a closer look

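Of 55 groups of 4 to 8 libraries examined for a single library far from the others, 2 held one, and chance alone marks about 1 in 20 such groups. Olfml3 stood at 2.78 FPKM in young WT JQ1 replicate 3, where the nearest of the other 7 libraries had 3.81 FPKM. Thy1 stood at 819 CPM in the library labelled APP JQ1 replicate 4, where the nearest of the other APP JQ1 libraries had 1616 CPM. No cause of these values was tested.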

How the results depend on the processing

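In APP vehicle against WT vehicle, 205 of the 243 values of single members under the alternatives kept their direction and their side of the threshold, 31 no longer passed, 7 newly passed and none reversed. For this comparison 436 genes were called and 5 members. The genes called were 804 with DESeq2, 679 with only the 2 groups fitted, 928 with DESeq2 without the library labelled APP JQ1 replicate 4 and 154 to 601 when 1 library was left out. The members called were 3 without a filter and 1 to 6 with 1 library left out. In APP JQ1 against APP vehicle, 184 genes were called, and 749 with DESeq2, 41 with a correction for GC content and length, 57 with both outlying libraries left out, 381 with DESeq2 without that library and 65 to 446 with 1 library left out; no member was called under any alternative (lowest adjusted p 0.167). In APP JQ1 against WT vehicle, 349 genes and 4 members were called. The genes were 790 with DESeq2, 227 with 2 groups fitted, 609 with the GC and length correction, 1034 with DESeq2 without that library and 11 to 651 with 1 library left out. The members were 2 without a filter, 1 with 2 groups fitted, 7 with both outlying libraries left out, 9 with DESeq2 without the one and 0 to 8 with 1 library left out. In young mice 1 locus was called, 0 without a filter and 0 to 2 with 1 library left out.

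Replicate numbers shared between groups did not pair the libraries: the mean correlation of the deviations of same-numbered libraries was -0.05 between WT vehicle and APP vehicle, -0.229 between WT vehicle and APP JQ1, 0.118 between the APP groups and 0.026 in young mice, and no comparison had every pair above 0.1. With the replicate block, 35 genes and 0 members were called in APP vehicle against WT (29 and 0 with GC and length as well), 87 genes in JQ1 against vehicle (32 with GC and length), 21 genes and 0 members in APP JQ1 against WT (41 and 0) and 0 loci in young mice.

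Uncalled differences near 0 changed sign for JQ1 against vehicle in APP animals. With the block Cx3cr1 stood at -0.0247. With GC and length corrected, P2ry12 stood at -0.11, P2ry13 at -0.0085, Csf1r at 0.0225 and Gpr34 at -0.27, and with the block as well P2ry12 at -0.11, P2ry13 at -0.0679, Cx3cr1 at -0.0121 and Gpr34 at -0.31. With both outlying libraries left out Csf1r stood at 0.0689, Siglech at 0.0499 and Olfml3 at 0.03, and with DESeq2 without the one at 0.0705, 0.0506 and 0.0316. With 1 library left out, the values ranged from -0.0008 to 0.27 for P2ry13, -0.0905 to 0.0884 for Tmem119, -0.0878 to 0.18 for Cx3cr1, -0.21 to 0.0704 for Csf1r, -0.0654 to 0.21 for Gpr34, -0.23 to 0.0514 for Siglech and -0.23 to 0.0788 for Olfml3. In young mice they ranged from -0.0304 to 0.0475 for Tmem119, -0.0522 to 0.012 for Csf1r, -0.0086 to 0.077 for Gpr34 and -0.0955 to 0.011 for Olfml3. Except where a setting leaves out libraries or groups, the cause of these shifts was not tested.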
